A study of Homo sapiens with 3 samples.

Results

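Genes of the NRF2 antioxidant response were followed in T47D, a human luminal breast cancer line that carries the estrogen receptor, after knockdown of the long noncoding RNA ERINA. The 9 genes described are NFE2L2, which encodes the transcription factor NRF2, KEAP1, which encodes its inhibitor, and 7 target genes (GCLC, GCLM, NQO1, HMOX1, TXNRD1, SRXN1 and SLC7A11). They were taken by gene symbol from the 58039 genes of the deposited table, where each has 1 row. The rule uses no measured value, but the set was chosen with earlier results of these data known. All 9 had a mean of at least 1 FPKM (fragments per kilobase of transcript, scaled to the depth of the library) and so were among the 13112 genes tested.

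The ERINA knockdown group has 2 libraries, from stable T47D cells infected with lentivirus carrying shRNA1 or shRNA2 and selected with puromycin. The control group has 1 T47D library, which its description names as a control hairpin while its shRNA label reads None. Whether those control cells had been through infection and selection is therefore not settled by the labels. The question put to the data is which transcripts differ when ERINA is reduced.

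NRF2 is a basic leucine zipper factor that pairs with small MAF proteins at antioxidant response elements in DNA. KEAP1 holds NRF2 for ubiquitination and breakdown in unstressed cells, and oxidants or electrophiles that modify KEAP1 let NRF2 accumulate. The control of NRF2 is thus largely at the level of the protein, which RNA sequencing does not measure. Its targets make glutathione, reduce thioredoxin, quinones and peroxiredoxins, break down haem and import cystine.

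The core of the antioxidant response element reads TGACNNNGC, and the stretches printed here are its matches in the promoters of members, shown because this is the element through which NRF2 acts. RefSeq promoter windows (GRCh38.p14, 250 bases before to 50 bases after a start site) were matched by symbol for 7 of the 9 genes, giving 10 windows. HMOX1 and SLC7A11 were not matched. On either strand the word was found in 4 of the 10 windows, belonging to GCLM, TXNRD1 and KEAP1, against 13.3% of all 35116 windows. No other motif was searched, so overlap with other motifs was not examined. Capitals mark the word, and each sequence is given 5′ to 3′ on the strand that carries it:
GCLM, chr1:93909446-93909474, plus strand: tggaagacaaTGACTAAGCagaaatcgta
TXNRD1, first start, chr12:104215670-104215698, plus strand: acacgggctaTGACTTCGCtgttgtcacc
TXNRD1, second start, chr12:104286920-104286948, minus strand: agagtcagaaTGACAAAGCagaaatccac
KEAP1, chr19:10502784-10502812, plus strand: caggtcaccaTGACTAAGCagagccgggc
KEAP1, chr19:10502807-10502835, minus strand: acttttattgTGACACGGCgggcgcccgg
Counted from the end of each word farther from its start site, the GCLM word lies 34 bases before the start. The TXNRD1 words lie 99 and 102 bases before theirs, and the KEAP1 words 31 and 54 bases before the same start. These are the start sites of the windows, which can differ from the ends of the gene spans given below. KEAP1 has 2 windows, of which 1 holds both words. A further TXNRD1 match reaches the start site itself and is not printed. GCLM and KEAP1 carry the identical 9-base word TGACTAAGC. A match is a run of letters and not a shown binding site, and windows without the word say nothing of elements farther away.

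ERINA was low in both knockdown libraries. It is listed under LINC00992, for which RefSeq gives ERINA as a synonym, and stood at 5.21 FPKM with shRNA1 and 8.91 FPKM with shRNA2, against 63.4 FPKM in the control, with bounds clear of the control's in both. Its log2 change was -3.12 (SE 0.33), and its Benjamini-Hochberg adjusted p in limma was 0.0816 (0.0309 to 0.234 over the alternatives). Total FPKM was 860240 with shRNA1, 808451 with shRNA2 and 790290 in the control. The depth estimated from genes that held a single fragment was about 32100000 fragments with shRNA1, 32300000 with shRNA2 and 31000000 in the control. All 10 luminal breast markers were above 1 FPKM in each library, with sums of 10199 and 8827 FPKM in the knockdown libraries and 8515 FPKM in the control. The higher sums rest on KRT19, at 5210 and 4281 FPKM against 3152 FPKM. PGR and FOXA1 were also higher in both knockdown libraries. KRT8, GATA3, CDH1 and TFF1 were lower in both, and ESR1, KRT18 and EPCAM were split. The 6 basal markers summed to 11.4 and 13.4 FPKM against 12.4 FPKM, the 6 stromal markers to 5.89 and 6.42 FPKM against 8.14 FPKM, and the 7 immune and endothelial markers to 0.356 and 0.395 FPKM against 1.37 FPKM. The lower stromal sums rest on COL1A1, at 1.65 and 2.10 FPKM against 5.16 FPKM. PDGFRB was also lower in both knockdown libraries, DCN and LUM were higher in both, and THY1 was split. Of the immune and endothelial markers 4 were at 0 FPKM with shRNA1, 3 with shRNA2 and 3 in the control, among them CD3E and HBB in each library, and of the stromal markers COL3A1 was at 0 in each. The part of these markers in the results was not tested.

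The NRF2 target genes were lower in both knockdown libraries, 7 of 7, whereas NFE2L2 was slightly higher in both and KEAP1 was split. GCLM and SRXN1 had the largest mean log2 differences. GCLM stood at 58.5% of the control FPKM with shRNA1 and 62.2% with shRNA2, and SRXN1 at 60.3% and 67.4%. SLC7A11, at a low level, was at 54.0% and 76.7%, and GCLC stood nearest to the control at 96.5% and 90.7%. In these bulk libraries a lower level per cell and fewer cells with the transcript cannot be told apart. None of the 9 passed limma (a linear model fitted over all 13112 genes, Benjamini-Hochberg adjusted p under 0.05), with adjusted p of 0.0844 to 0.841. That test called 0.351% of all genes, 0.267% lower and 0.0839% higher. At an unadjusted limma p under 0.05, 5 of the 9 were lower (GCLM, NQO1, HMOX1, TXNRD1 and SRXN1) and 0 higher, against 15.9% of all genes lower and 13.7% higher. Of all tested genes 42.6% were lower in both knockdown libraries and 42.4% higher in both. Each gene gives these p-values 1 residual degree of freedom, from the spread between the libraries of 2 different hairpins. The variance of each gene is also drawn toward a trend over all tested genes, so p-values and SE rest largely on that pooled spread. The lone control is assumed to vary like the hairpin libraries.

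**Figure D1:**
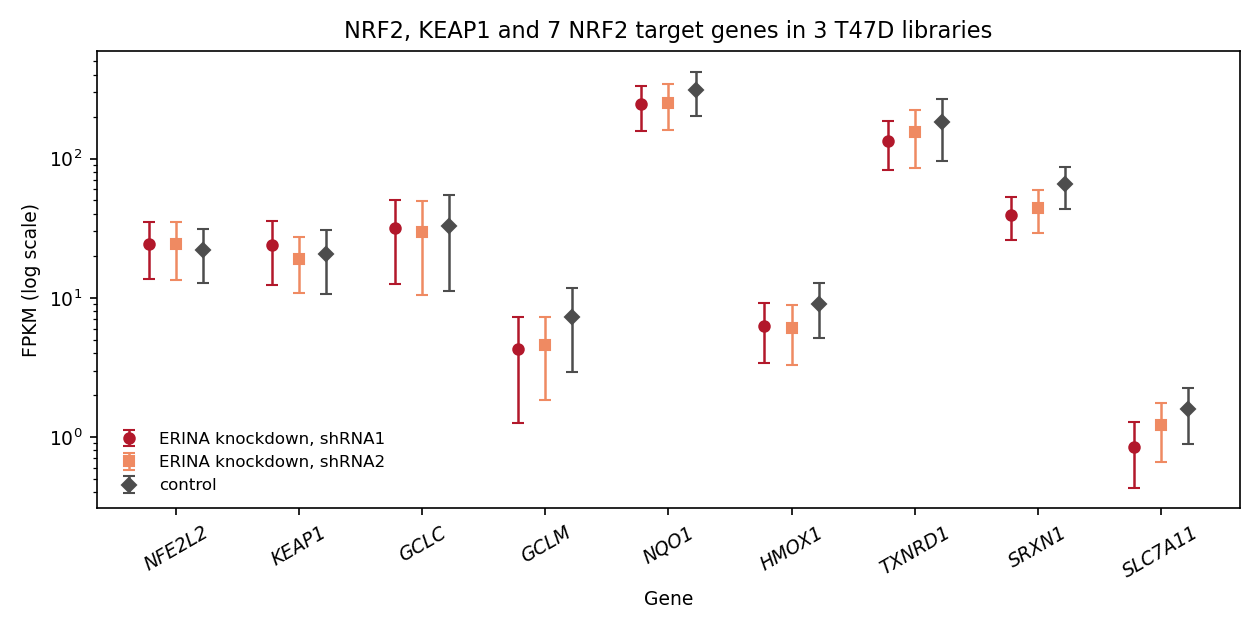
FPKM on a log axis for each of the 9 genes in the shRNA1 library (circles), the shRNA2 library (squares) and the control library (diamonds), where bars are the deposited confidence bounds of each library. The 7 target genes lie below the control in both knockdown libraries, from GCLM at 4.28 and 4.55 against 7.31 FPKM to GCLC at 31.7 and 29.8 against 32.9 FPKM, and every knockdown bar overlaps its control bar.

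The transcription factor and its inhibitor were close to the control. NFE2L2 (ENSG00000116044, chromosome 2, 177227595 to 177392697, minus strand of GRCh38) had 24.3 FPKM with shRNA1 and 24.2 FPKM with shRNA2, against 22.1 FPKM in the control. Each knockdown library was 0.13 above the control on the log2(FPKM + 0.5) scale. The log2 change was 0.13 (SE 0.09; limma, Benjamini-Hochberg adjusted p 0.376). KEAP1 (ENSG00000079999, chromosome 19, 10486120 to 10503741, minus strand), the adaptor that hands NRF2 to a CUL3 ubiquitin ligase, had 24.0 FPKM with shRNA1 and 19.1 FPKM with shRNA2, against 20.6 FPKM in the control. It was above the control with shRNA1 and below it with shRNA2, a gap between the hairpins of 0.32 on the log2 scale. Its mean log2 change was 0.06 (SE 0.17; limma adjusted p 0.841, Benjamini-Hochberg), and -0.020 once total FPKM was made equal. NFE2L2 contains the pseudogene DNAJC19P5 on the same strand, listed at 0.789 and 0.204 FPKM in the knockdown libraries and 1.04 FPKM in the control. The ratio of KEAP1 to NFE2L2 FPKM was 0.986 and 0.789 in the knockdown libraries and 0.931 in the control.

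The subunits of glutamate-cysteine ligase, the enzyme of the first and rate-limiting step of glutathione synthesis, lay at unequal distances below the control, a difference that was not tested. GCLM (ENSG00000023909, chromosome 1, 93885205 to 93909456, minus strand) encodes the modifier subunit, which raises the activity of the enzyme. It had 4.28 FPKM with shRNA1 and 4.55 FPKM with shRNA2, against 7.31 FPKM in the control. Both knockdown values lay below the control by more than the gap between them, with a mean of 4.42 ± 0.189 FPKM (SD, n = 2). The log2 change of -0.67 (SE 0.13) was the largest of the 9 and carried a Benjamini-Hochberg adjusted p of 0.0925 in limma. GCLC (ENSG00000001084, chromosome 6, 53497341 to 53616970, minus strand) encodes the catalytic subunit and had 31.7 FPKM with shRNA1 and 29.8 FPKM with shRNA2, against 32.9 FPKM in the control. Its difference of -0.09 (SE 0.09) on the log2 scale was about as large as its error (limma, Benjamini-Hochberg adjusted p 0.529). The GCLC to GCLM ratio of FPKM was 7.41 with shRNA1 and 6.55 with shRNA2, against 4.49 in the control, the highest ratio being that with shRNA1.

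Members of the thioredoxin branch were lower in both knockdown libraries. SRXN1 (ENSG00000271303, chromosome 20, 646615 to 653370, minus strand) encodes sulfiredoxin, which restores over-oxidised peroxiredoxins. It had 39.5 FPKM with shRNA1 and 44.1 FPKM with shRNA2, against 65.5 FPKM in the control. Its log2 change was -0.64 (SE 0.11), with the lowest limma adjusted p of the 9, 0.0844 (Benjamini-Hochberg), and its deposited bounds were the narrowest of the 9 relative to the FPKM in each library. TXNRD1 (ENSG00000198431, chromosome 12, 104215779 to 104350305, plus strand) encodes the cytosolic thioredoxin reductase, a selenoprotein. It had 134 FPKM with shRNA1 and 154 FPKM with shRNA2, against 182 FPKM in the control. The shRNA2 value lay closer to the control than the shRNA1 value, and the log2 change of -0.34 (SE 0.12) carried a Benjamini-Hochberg adjusted p of 0.163 in limma. TXNRD1 contains the processed pseudogene RPL18AP3 on the same strand, listed at 15.9 and 14.9 FPKM in the knockdown libraries and 11.9 FPKM in the control, and the division of reads between them is uncertain. The ratio of TXNRD1 to SRXN1 FPKM was 3.40 and 3.50 in the knockdown libraries and 2.78 in the control.

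NQO1 and HMOX1, the textbook reporters of NRF2 activity, differed less between the hairpins than from the control. NQO1 (ENSG00000181019, chromosome 16, 69706996 to 69726951, minus strand) encodes a quinone reductase. It had 246 FPKM with shRNA1 and 251 FPKM with shRNA2, against 313 FPKM in the control, a mean of 248 ± 3.46 FPKM in knockdown (SD, n = 2). The log2 change of -0.33 (SE 0.08) carried a Benjamini-Hochberg adjusted p of 0.106 in limma. Set against its regulator, the ratio of NQO1 to NFE2L2 FPKM was 10.1 and 10.3 in the knockdown libraries and 14.1 in the control. HMOX1 (ENSG00000100292, chromosome 22, 35380361 to 35394214, plus strand) encodes the inducible haem oxygenase, which is also repressed by BACH1. It had 6.28 FPKM with shRNA1 and 6.03 FPKM with shRNA2, against 8.96 FPKM in the control. Its log2 change was -0.51 (SE 0.12; limma, Benjamini-Hochberg adjusted p 0.106).

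SLC7A11 was the least abundant member and the least even between the hairpins among the targets. SLC7A11 (ENSG00000151012, chromosome 4, 138164097 to 138242349, minus strand) encodes the cystine-glutamate exchanger that supplies cysteine for glutathione. It had 0.852 FPKM with shRNA1 and 1.21 FPKM with shRNA2, against 1.58 FPKM in the control. The shRNA1 value alone lay under 1 FPKM, and the gap between the hairpins was -0.34 on the log2 scale. The log2 change of -0.45 (SE 0.25) carried a Benjamini-Hochberg adjusted p of 0.294 in limma. At so low a level the added constant counts, and the log2 change was -0.59 with 0.1 FPKM added and -0.35 with 1 FPKM added.

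The order of levels was the same in the 3 libraries. NQO1 was highest, followed by TXNRD1, SRXN1, GCLC, NFE2L2, KEAP1, HMOX1, GCLM and SLC7A11. FPKM is scaled to transcript length, so these levels may be compared between genes. In the control the NQO1 level exceeded that of 97.9% of tested genes and the TXNRD1 level that of 96.3%, whereas SLC7A11 exceeded 8.11%. NQO1 and TXNRD1 together made up 82.1% and 82.5% of the summed FPKM of the 7 target genes in the knockdown libraries and 81.0% in the control. That sum was 463 and 491 FPKM in the knockdown libraries, against 611 FPKM in the control. Of the 8 neighbouring pairs, the deposited bounds of TXNRD1 and SRXN1 were apart in all 3 libraries. Those of KEAP1 and HMOX1 were apart in both knockdown libraries only, and those of GCLM and SLC7A11 with shRNA2 and in the control. The bounds of the other pairs overlapped in each library, so their order is not settled beyond that error.

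The deposited bounds, whose confidence level the headers do not state, were wide beside these differences. Their half-width ran from 33.4% to 70.4% of the FPKM over the 9 genes and 3 libraries. For 0 of the 9 did both knockdown intervals lie clear of the control interval, against 0.221% of all tested genes clear below it and 0.0839% clear above it. The closest was SRXN1, whose bounds reached from 25.9 to 53.2 FPKM with shRNA1 and from 29.1 to 59.2 FPKM with shRNA2, against 43.6 to 87.4 FPKM in the control.

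By size alone, 1 of the 9, GCLM, was at least 1.5-fold lower in both knockdown libraries on the log2(FPKM + 0.5) scale and 0 were as much higher, against 5.99% and 4.38% of all tested genes. The control stood 1.71-fold above shRNA1 and 1.61-fold above shRNA2 for GCLM, as ratios of FPKM. SRXN1 came next, with the control 1.66-fold above shRNA1 and 1.48-fold above shRNA2. With the shRNA2 library left out the count was 3, with SRXN1 and SLC7A11 added, where 1419 of the 13112 tested genes were as much lower. It was 2, GCLM and SRXN1, once total FPKM was made equal, where 925 tested genes were as much lower. Without these changes 786 tested genes were. The median log2 change of the 7 targets was -0.45, with -0.48 for shRNA1 and -0.32 for shRNA2, against 0.00053 over all tested genes. Of the 7, 5 were lower with shRNA1 than with shRNA2, GCLC and HMOX1 being the exceptions, against 52.2% of all tested genes.

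**Figure D2:**
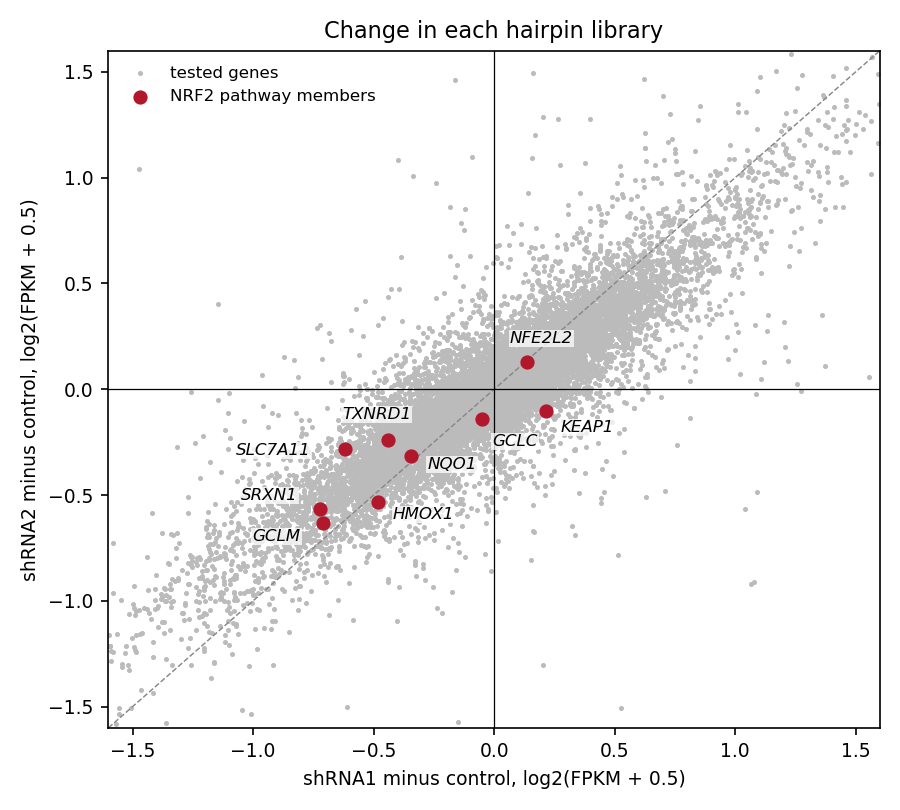
Difference from the control on the log2(FPKM + 0.5) scale in the shRNA1 library (horizontal axis) and the shRNA2 library (vertical axis) for tested genes (grey) and the 9 genes described (red), with a dashed line of equal difference. Both axes share the control library, 229 tested genes lie outside the axes, and by mean difference the members run from -0.71 and -0.63 for GCLM to 0.13 and 0.13 for NFE2L2.

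The place of each gene among all tested genes shows how common such differences were. Genes with a lower log2 change than GCLM made up 6.53% of those tested, and 7.23% were below SRXN1, 11.1% below HMOX1, 13.3% below SLC7A11, 18.8% below TXNRD1 and 19.3% below NQO1. GCLC, KEAP1 and NFE2L2 lay in the middle, with 39.5%, 56.7% and 66.1% of genes below them. The 5 genes whose paired differences were nearest to those of GCLM were SEMA4G, RP11-33O4.1, MEIOB, ADAP2 and CCNE1, at a Euclidean distance of at most 0.016 on the log2 scale over the 2 differences. CCNE1, which encodes cyclin E1, had 3.38 and 3.62 FPKM in the knockdown libraries, against 5.90 FPKM in the control. With only 3 libraries behind this likeness, 170 tested genes lay within 0.1 of GCLM.

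With the 11546 protein-coding genes tested alone, 4 of the 9 fell (limma, Benjamini-Hochberg adjusted p): SRXN1 (0.0105), GCLM (0.0265), NQO1 (0.0434) and HMOX1 (0.0463). Over the alternatives their adjusted p reached 0.241, 0.229, 0.228 and 0.230, each the highest for its gene. That setting called 11.3% of protein-coding genes lower and 7.11% higher. TXNRD1 (0.0701) and SLC7A11 (0.228) did not pass it. With limma's robust option, which called 4.54% of all genes lower and 3.28% higher, SRXN1 was the 1 member that fell (Benjamini-Hochberg adjusted p 0.0383).

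Other genes of the redox network were read from 9 lists, 102 genes found by symbol of 103, of which 82 were tested. In limma over all genes 0 of the 82 passed (Benjamini-Hochberg adjusted p of 0.0721 to 0.985), while 18 were lower and 9 higher at an unadjusted p under 0.05 (22% and 11%). In both knockdown libraries 44 were lower and 29 higher (53.7% and 35.4%), and 4 were at least 1.5-fold lower and 1 as much higher (4.88% and 1.22%). The median log2 change was -0.08. The lists had been chosen with earlier results known, and their shares are given beside the 15.9%, 13.7%, 42.6%, 42.4%, 5.99% and 4.38% of all tested genes in the same order. With protein-coding genes tested alone, limma called 12 lower and 5 higher (14.6% and 6.1%). For 0 of the 82 did both knockdown intervals lie clear of the control interval. Of all tested genes 0.221% lay clear below it and 0.0839% clear above it.

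**Figure D3:**
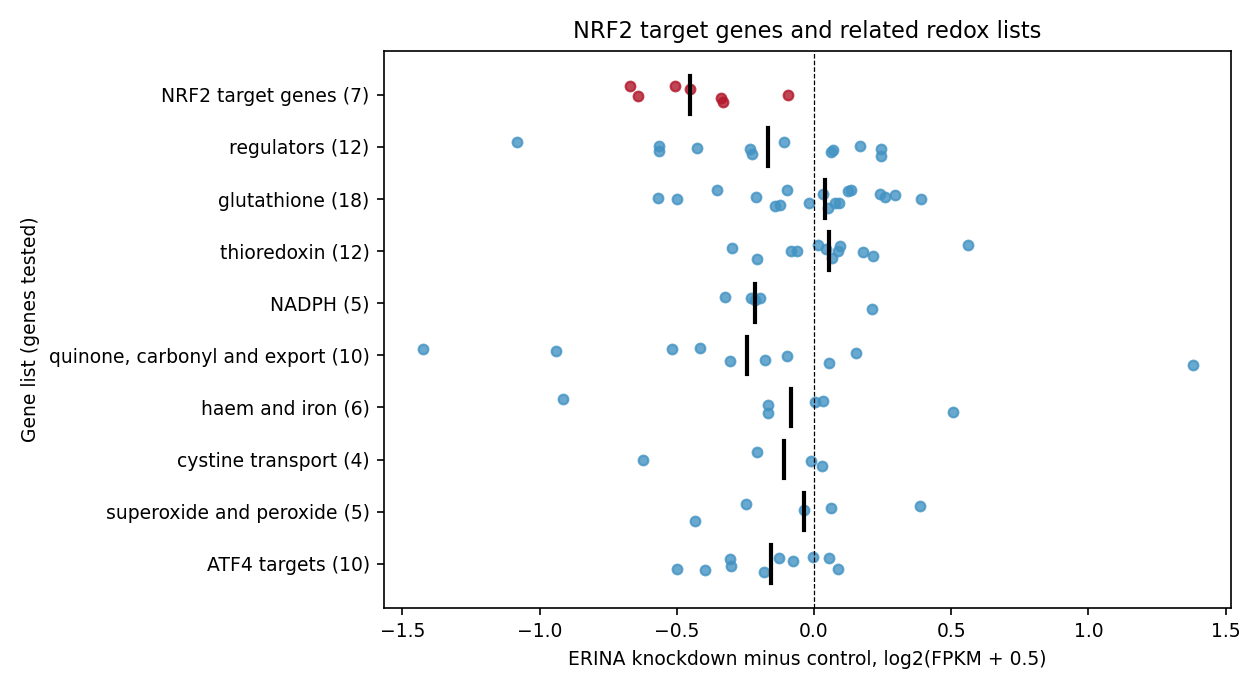
Log2(FPKM + 0.5) difference of ERINA knockdown from control for the 7 NRF2 target genes (red) and the tested genes of 9 related lists (blue), 1 point a gene, with a black bar at each list's median and the number tested in brackets. The medians run from -0.45 for the target genes to 0.05 for the thioredoxin list, and most lists hold genes on both sides of 0.

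Of 15 regulators and relatives of NRF2, 12 were tested, 7 lower and 5 higher in both knockdown libraries. Their median log2 change was -0.17, or -0.11 among genes at a mean of at least 5 FPKM. The 5 higher, named after their values were seen, were BACH1, DPP3, MAFK, CUL3 and PGAM5, with log2 changes from 0.06 to 0.24. BACH1 had 39.0 and 39.2 FPKM in the knockdown libraries against 33.0 FPKM in the control (limma adjusted p 0.161, Benjamini-Hochberg). MAFG, a small MAF partner of NRF2, had 3.16 and 3.68 FPKM in the knockdown libraries, against 7.78 FPKM in the control. It overlaps SIRT7 on the same strand, listed at 10.2 and 9.81 FPKM against 10.7 FPKM. NFE2L3, a factor related to NRF2, had 5.10 and 5.47 FPKM against 8.05 FPKM. Its bounds with shRNA1 were wide, 0.308 to 9.90 FPKM, and it overlaps HNRNPA2B1 on the opposite strand, listed at 147 and 157 FPKM against 160 FPKM. SQSTM1 (p62), a cargo receptor that binds KEAP1 and is itself induced by NRF2, had 111 and 113 FPKM against 166 FPKM. BTRC, the substrate receptor of another ligase that targets NRF2, had 9.24 and 9.33 FPKM against 12.7 FPKM. MAFG was thus more than 1.5-fold below the control in both. Its limma adjusted p was 0.0832 (Benjamini-Hochberg), and ran from 0.00936, with protein-coding genes tested alone, to 0.230 over the alternatives.

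Quinone, carbonyl and export genes held the largest differences in both directions. Of 19 listed, 10 were tested, 6 lower and 3 higher in both knockdown libraries, with a median log2 change of -0.24. CBR3, a carbonyl reductase, had 4.34 and 4.28 FPKM in the knockdown libraries, against 12.4 FPKM in the control, and its antisense partner CBR3-AS1 had 4.50 and 3.93 FPKM against 2.999 FPKM. OSGIN1, an oxidative stress-induced growth inhibitor, had 13.9 and 14.7 FPKM against 28.0 FPKM. CBR1, the neighbouring carbonyl reductase, had 51.1 and 56.6 FPKM against 77.2 FPKM. On the other side ABCC5, an ATP-binding cassette exporter, had 64.6 and 52.4 FPKM against 22.1 FPKM. CBR3 had a log2 change of -1.43 (SE 0.12) and ABCC5 of 1.38 (SE 0.15), with limma adjusted p of 0.0721 and 0.0829 (Benjamini-Hochberg). The deposited bounds of CBR3 were wide, 0 to 10.5 and 0 to 10.3 FPKM in the knockdown libraries against 1.15 to 23.7 FPKM in the control. With protein-coding genes tested alone, limma called 4 of the list lower (CBR3, OSGIN1, CBR1 and EPHX1, an epoxide hydrolase named after its values were seen) and 1 higher (ABCC5), in a setting that called 11.3% of all protein-coding genes lower and 7.11% higher. Named after their values were seen, the 9 genes of the list below the filter included the aldo-keto reductases AKR1B1, AKR1B10, AKR1C1, AKR1C2 and AKR1C3 and the aldehyde dehydrogenase ALDH3A1, at 1.01 FPKM or less in each library.

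Glutathione enzymes were split, 8 lower and 9 higher in both knockdown libraries of 18 tested, with a median log2 change of 0.04, which was 0.06 with shRNA1 alone, 0.0020 with shRNA2 alone and -0.031 once total FPKM was made equal. The glutathione transferase GSTM2 had 4.16 and 3.52 FPKM in the knockdown libraries against 5.91 FPKM in the control, where reads may be shared with its near-identical family members. Its deposited bounds were wide, 0.131 to 8.19 and 0.534 to 6.50 FPKM in the knockdown libraries against 0 to 11.8 FPKM in the control. The glutathione peroxidase GPX3 had 7.72 and 9.02 FPKM against 12.0 FPKM, and GPX4, which reduces lipid peroxides, 240 and 227 FPKM against 298 FPKM. GSTK1, a transferase of mitochondria and peroxisomes, had 72.2 and 65.3 FPKM against 52.2 FPKM. Their limma adjusted p ran from 0.108 for GPX4 to 0.131 for GSTM2 (Benjamini-Hochberg).

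Of the thioredoxin list, which leaves out SRXN1 and TXNRD1, there were 4 lower and 7 higher in both knockdown libraries of 12 tested, with a median log2 change of 0.05, or -0.020 once total FPKM was made equal. TXNIP, an inhibitor of thioredoxin that also responds to glucose, had 137 and 127 FPKM in the knockdown libraries against 89.2 FPKM in the control (limma adjusted p 0.0841, Benjamini-Hochberg). PRDX2, a cytosolic peroxiredoxin, had 262 and 237 FPKM against 214 FPKM. The other reductases were lower, TXNRD3 at 4.24 and 5.48 FPKM against 6.05 FPKM and the mitochondrial TXNRD2 at 8.03 and 7.78 FPKM against 9.19 FPKM. Their log2 changes were -0.30 (SE 0.20) and -0.21 (SE 0.12), beside -0.34 (SE 0.12) for the member TXNRD1. For TXNRD3 and TXNRD2 the limma adjusted p was 0.365 and 0.301 (Benjamini-Hochberg).

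Genes that make NADPH, which both glutathione and thioredoxin reductases consume, were 4 lower and 1 higher in both knockdown libraries of 5 tested, with a median log2 change of -0.22. PGD, an enzyme of the pentose phosphate pathway, was lower at 87.5 and 87.3 FPKM against 102 FPKM in the control. IDH1, the cytosolic isocitrate dehydrogenase, was lower at 32.9 and 36.9 FPKM against 40.9 FPKM. TALDO1, of the non-oxidative branch, was higher at 164 and 146 FPKM against 134 FPKM. For PGD, IDH1 and TALDO1 the limma adjusted p ran from 0.170 to 0.266 (Benjamini-Hochberg).

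Haem and iron genes were 3 lower and 2 higher in both knockdown libraries of 6 tested, with a median of -0.08, which was -0.047 with shRNA1 alone, -0.097 with shRNA2 alone and -0.16 once total FPKM was made equal. FECH, the last enzyme of haem synthesis, had 10.8 and 15.0 FPKM against 24.4 FPKM in the control. BLVRA, a biliverdin reductase that acts after haem oxygenase, had 131 and 120 FPKM against 88.2 FPKM. BLVRB had 222 and 211 FPKM against 243 FPKM, and the ferritin heavy chain FTH1, whose many processed copies make its count uncertain, had 578 and 607 FPKM against 666 FPKM. HMOX1 and BLVRA, successive steps of haem breakdown, thus stood on opposite sides of the control, with limma adjusted p of 0.106 and 0.0894 (Benjamini-Hochberg). That contrast holds for 1 enzyme of each step. HMOX2, the more abundant haem oxygenase, named after its values were seen, had 63.2 and 62.9 FPKM against 61.6 FPKM. BLVRB, the more abundant biliverdin reductase, was lower in both, as HMOX1 was.

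Superoxide and peroxide enzymes were 3 lower and 1 higher of 5 tested, with a median of -0.04, which was -0.14 among genes at a mean of at least 5 FPKM and -0.11 once total FPKM was made equal. The mitochondrial superoxide dismutase SOD2 had 31.7 and 33.2 FPKM in the knockdown libraries against 44.0 FPKM in the control, and the peroxisomal catalase CAT had 57.0 and 62.7 FPKM against 71.0 FPKM. PON2, a lactonase, had 38.9 and 37.3 FPKM against 29.04 FPKM. The cytosolic SOD1 had 379 and 375 FPKM against 387 FPKM, a log2 difference of -0.04 (SE 0.08). The limma adjusted p was 0.0936 for SOD2 and 0.776 for SOD1 (Benjamini-Hochberg). The deposited bounds of SOD2 were wide, 0 to 69.8 and 0 to 72.6 FPKM in the knockdown libraries against 0 to 93.9 FPKM in the control.

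SLC7A11 is also a target of ATF4, the factor of the integrated stress response, so transporter and ATF4 genes are set beside it. Of 4 tested transport genes 2 were lower and 0 higher in both knockdown libraries, with a median of -0.11, which was -0.043 with shRNA1 alone, -0.18 with shRNA2 alone and -0.19 once total FPKM was made equal. The neutral amino acid transporter SLC1A4 had 5.95 and 6.44 FPKM against 9.81 FPKM in the control, and SLC1A5 had 54.4 and 53.0 FPKM against 62.1 FPKM. The other 2, named after their values were seen, were split between the hairpins. SLC3A2 had 161 and 143 FPKM against 149 FPKM, and SLC7A5 had 56.0 and 47.5 FPKM against 52.0 FPKM. Of 10 ATF4 genes 7 were lower and 1 higher in both, with a median of -0.15. Named after its values were seen, SESN2 was the 1 higher, at 10.5 and 9.86 FPKM against 9.77 FPKM. Also named so, ATF4 itself was split at 128 and 124 FPKM against 126 FPKM, and ASNS at 19.56 and 22.3 FPKM against 19.63 FPKM. The pseudokinase TRIB3 had 28.2 and 31.1 FPKM against 42.1 FPKM, CEBPB 8.13 and 9.07 FPKM against 11.5 FPKM, DDIT3 (CHOP) 35.8 and 38.0 FPKM against 45.7 FPKM, and PPP1R15A 6.61 and 5.98 FPKM against 7.87 FPKM. Their limma adjusted p ran from 0.0949 to 0.226 (Benjamini-Hochberg). The part of any ATF4 difference in the SLC7A11 values was not tested.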

How the data were processed

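RNA of 3 T47D libraries was sequenced and the authors deposited FPKM per gene, with a lower and an upper bound of each FPKM and a status, per the file headers. The submitters' processing notes name STAR, RSEM and GRCh38, with no role or version. Which program made the deposited FPKM, bounds and status fields is not settled by these names, so how the bounds were computed is unknown. Not given in the sources used here are the annotation, the strand setting and whether libraries were scaled to each other.

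Groups came from the genotype label. Log2(FPKM + 0.5) was fitted by limma 3.58.1 in R 4.3.3 for 13112 genes whose mean reached 1 FPKM (lmFit, eBayes with a mean-variance trend, threshold 0.05), knockdown against control. A check on simulated data used changes larger than those of the members, so it does not cover differences of their size. Fits without trend, with the robust option, with protein-coding genes alone, and with other pseudocounts, filters and scalings were alternatives. Members and lists were chosen with earlier results of these data known. In each list the up to 4 genes moving the same way in both knockdown libraries with the largest log2 change were named. Gene types and coordinates came from GENCODE release 29 (GRCh38), which held 99.0% of the listed genes. Depth was estimated from the FPKM of single fragments in genes with 1 transcript of at least 1000 nt, and any scaling by the authors would alter it. Of the 34 list genes that this rule picks, 1 of which is not reported here, 15 overlap another gene at 1 FPKM or more, and without strand their reads cannot be told apart. Tables and plots used Python 3.11.15, pandas 2.3.3, numpy 2.4.6 and matplotlib 3.10.9. No library was a copy of another, with 0 genes of equal nonzero FPKM in any pair.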

Additional observations from a re-analysis of the deposited data

How the results depend on the processing

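The direction of NFE2L2, GCLC, GCLM, NQO1, HMOX1, TXNRD1, SRXN1 and SLC7A11 held under each alternative that tested them. KEAP1 turned to -0.020 once total FPKM was made equal, a scaling that put the all-gene median at -0.12 (shRNA1) and -0.029 (shRNA2), and ranged from -0.10 to 0.22 with either hairpin alone. Of the alternatives, SRXN1 (-0.64), GCLM (-0.67), NQO1 (-0.33) and HMOX1 (-0.51) passed limma with protein-coding genes tested alone, and SRXN1 also with the robust option (Benjamini-Hochberg adjusted p of 0.0383). With a hairpin left out there is no test. Genes called, 11 higher and 35 lower, became 0 and 0 with no filter on low values (5039 at an unadjusted p under 0.05), 65 and 111 with the same total, 430 and 595 with the robust option and 821 and 1299 with protein-coding genes alone. Without the trend 6 were higher. The cause was not tested.

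Genes with separated deposited intervals, 11 higher and 29 lower, became 225 and 465 with intervals shrunk to 0.5 of their width, where SRXN1 was 1 member among those lower, and 6 were higher at a mean FPKM of at least 5. Genes at least 1.5-fold apart, 574 higher and 786 lower, became 166 and 190 at 2-fold, and ranged from 746 to 1035 higher and from 932 to 1419 lower with a hairpin left out. The member count of 1 became 0 with 1 FPKM added, 2 with the same total and 0 at 2-fold, and ranged from 1 to 3 with a hairpin left out. Beside it, the 786 lower of all tested genes became 665 with 1 FPKM added and 925 with the same total. List medians turned sign with the same total for glutathione (-0.031) and thioredoxin (-0.020). No paired analysis was possible because the control has 1 library. List medians moved by more than 1.5 times without a change of sign for regulators (-0.11) and superoxide (-0.14) at a mean FPKM of at least 5, superoxide (-0.11), haem (-0.16) and transport (-0.19) with the same total, and with a hairpin left out haem (-0.097 to -0.047), transport (-0.18 to -0.043) and glutathione (0.0020 to 0.06). The FPKM bounds of the 9 members, at least 33.4% of the level on either side, limit what can be seen of differences of this size.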
